A study of Mus musculus with 3 samples.

Results

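Messenger RNA of 10 genes of the hair bundle, the mechanosensory organelle of inner ear hair cells, was examined in mouse vestibular cells described as looking like black balls. The genes were taken by symbol from the deposited gene table: the motor genes Myo7a, Myo15a and Myo6, the actin regulators Espn and Eps8, the scaffold genes Ush1c, Ush1g and Whrn, and the surface protein genes Strc and Ptprq. All 10 of 10 symbols were found among the 57180 genes of the table, and all 10 had counts in every library. The study has 1 group of 3 libraries of wild-type cells, labelled black ball 1, 2 and 3 and called replicates 1, 2 and 3 here. Their source is given as vestibular cells, their cell type as macrophages and their cell line field as immune cells, while the series title concerns melanocytes. Altogether 18 cells from 9 mice were lysed, 3 mice to a group. The sources used here do not say how cells and mice were divided over the libraries, nor the strain and age of the mice. There is no other condition and no control group.

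Hair cells detect head motion with stereocilia, finger-like projections filled with parallel actin filaments and joined to their neighbours by fine extracellular links. Espin bundles the actin core, EPS8 caps and elongates the filaments at the tip, and myosin XVa carries EPS8 and whirlin there. Harmonin (Ush1c) and SANS (Ush1g) assemble with myosin VIIa into the scaffold that holds the tip link, and these are Usher syndrome genes, as is the gene of whirlin. Several of these genes also serve other cells: harmonin, espin and EPS8 are found in the microvilli of intestinal epithelium, and myosin VI takes part in endocytosis in many cell types.

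Of the 10 genes, 6 stood above 1 TPM (a transcript-based unit that scales the count by gene length and by the library) in limma's one-sided test of the mean log2(TPM + 1), with an adjusted p under 0.05. They were Ush1c, Espn, Ptprq, Myo7a, Myo15a and Myo6. Of all 27265 genes tested, 37.6% passed the same test, and of the 16219 protein-coding genes among them, 50.5% did. Ush1g, Eps8, Whrn and Strc did not pass. The median level of the 10 genes was 2.59 on the log2(TPM + 1) scale, beside 1.49 over all genes tested and 2.32 over protein-coding genes. The p-values measure the spread between these libraries only, which may be technical, because the labels do not tie a library to named animals.

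**Figure D1:**
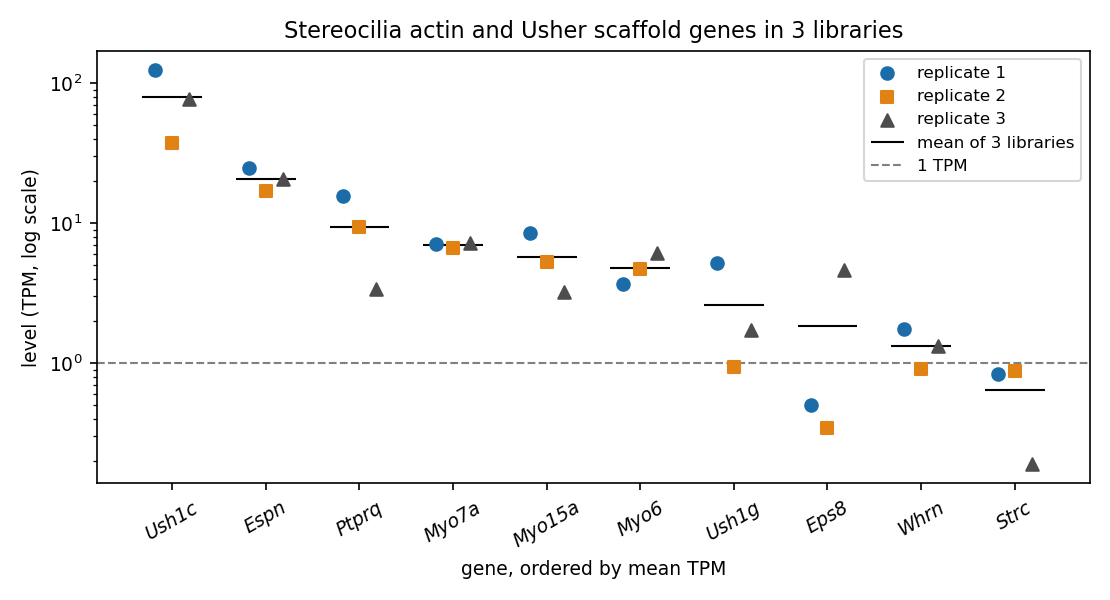
Level in TPM (log axis) of each of the 10 genes in the 3 libraries. Points are libraries, the short black lines are means and the dashed line marks 1 TPM. Ush1c is highest in each library, with a mean of 79.1 TPM, and Strc lies below 1 TPM in each.

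Total counts were 18460546, 15086854 and 14095521 in replicates 1, 2 and 3, so that 3 counts correspond to between 0.163 and 0.213 CPM (the count scaled by the library total alone). Such a floor covers counting error only, since PCR copies carried no molecular identifiers. Transcripts of several cell types were present. All 10 macrophage markers examined passed the test, as did 6 of 10 melanocyte markers, 9 of 12 supporting cell markers and 11 of 12 hair cell markers. Of all protein-coding genes tested, 50.5% passed, which is near the melanocyte share. The melanocyte markers that passed were Dct, Mlana and Pmel, at means of 250, 232 and 72.4 TPM, and Slc45a2, Tyr and Tyrp1, at 31.5, 17.3 and 11.7 TPM. Trpm1, Mlph, Mitf and Oca2 did not pass. In a library summed over cells, fewer cells of a type and less RNA per cell cannot be told apart.

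A set of 4 of the 10 genes, Ush1c, Espn, Ush1g and Whrn, had the same order over the libraries, highest in replicate 1 and lowest in replicate 2. Of all genes that passed, 19.0% had this order, while Ush1g and Whrn did not pass. The upstream bases of those with a RefSeq promoter entry are shown because their genes share this order. Entries existed for 6 of the 10 genes, and Ush1g is not among them. Each stretch is the 150 bases before an annotated start, on the minus strand of build GRCm38.p6 (the counts were made on GRCm39), in lower case. Capitals mark the E-box CANNTG, the core recognised by basic helix-loop-helix factors such as ATOH1, which reads the same on both strands. Ush1c lies at chr7:46238491-46238640 and Whrn at chr4:63495992-63496141. Of the 3 entries for Espn, those at chr4:152136326-152136475 (start A) and chr4:152128926-152129075 (start B) are given, whose downstream bases match a GENCODE vM21 transcript.
Ush1c: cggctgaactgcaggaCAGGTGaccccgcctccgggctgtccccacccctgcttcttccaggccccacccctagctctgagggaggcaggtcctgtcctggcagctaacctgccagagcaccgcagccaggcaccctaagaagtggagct
Whrn: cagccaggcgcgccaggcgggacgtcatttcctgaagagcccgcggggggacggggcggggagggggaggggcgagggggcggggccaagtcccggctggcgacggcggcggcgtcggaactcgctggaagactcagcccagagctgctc
Espn start A: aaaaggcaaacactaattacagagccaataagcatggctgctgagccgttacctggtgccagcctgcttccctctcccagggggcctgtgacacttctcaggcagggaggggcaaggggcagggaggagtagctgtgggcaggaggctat
Espn start B: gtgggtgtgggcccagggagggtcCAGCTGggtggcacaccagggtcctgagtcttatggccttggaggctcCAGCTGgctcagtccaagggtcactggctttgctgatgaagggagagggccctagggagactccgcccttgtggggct
Ush1c held 1 E-box in this window, Espn start B held 2 and the other two held 0. Of 32851 promoter entries of the same length, 47.7% held at least 1. The motif TATAAA, searched on both strands, was in none of the 4 stretches and in 7.57% of all entries. It cannot overlap CANNTG. These are matches of letters only.

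The harmonin gene Ush1c (chromosome 7, 45844774 to 45887927 on GRCm39) had the highest level of the 10. It was counted 5033, 1383 and 2789 times, or 123, 37.2 and 76.7 TPM, in replicates 1, 2 and 3. The level was thus highest in replicate 1 and lowest in replicate 2, a 3.31-fold range. Its mean was 79.1 ± 43.1 TPM (SD, n = 3, as for the values below), above 1 TPM with adjusted p = 0.000103 (limma). The libraries differed widely for Ush1c: its SD of 0.86 in log2(TPM + 1) was larger than that of 85.1% of the genes that passed, whose median SD was 0.49.

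Its binding partner SANS, encoded by Ush1g (chromosome 11, 115206018 to 115212867), was far lower. Ush1g was counted 127, 21 and 38 times, or 5.17, 0.940 and 1.74 TPM. Replicate 1 alone exceeded 2 TPM, and the mean of 2.62 ± 2.25 TPM did not pass (limma, adjusted p = 0.251). The level of Ush1c was 23.8, 39.6 and 44.1 times that of Ush1g in replicates 1, 2 and 3, or 42.6, 70.9 and 79.0 times with the longest GENCODE vM21 transcript as the gene length. The third scaffold gene, Whrn (chromosome 4, 63333147 to 63414228), encodes whirlin, a PDZ domain protein of the stereocilia tip and of the ankle links. Whrn was counted 145, 69 and 98 times, or 1.75, 0.915 and 1.33 TPM, a low level in each library. The mean of 1.33 ± 0.418 TPM did not pass (limma, adjusted p = 0.544). Of the 3 scaffold genes, then, harmonin's transcript alone passed the test.

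The espin gene Espn (chromosome 4, 152204788 to 152236828), whose protein cross-links actin into bundles, came second. Espn was counted 2621, 1636 and 1957 times, or 24.8, 17.0 and 20.7 TPM. The libraries lay within a 1.46-fold range around a mean of 20.8 ± 3.89 TPM, above 1 TPM with adjusted p = 8.74e-05 (limma). The other actin regulator, Eps8 (chromosome 6, 137454243 to 137631874), depended on 1 library. Eps8 was counted 60, 37 and 491 times, or 0.507, 0.343 and 4.65 TPM in replicates 1, 2 and 3. Replicate 3 was thus 13.5 times replicate 2, and the other two libraries lay below 1 TPM. The mean of 1.83 ± 2.44 TPM did not pass (limma, adjusted p = 0.672). Without replicate 3 the mean of Eps8 on the log2(TPM + 1) scale lay 0.49 below that of 1 TPM.

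Most of the neuron markers examined were also highest in replicate 3. Of the 8 neuron genes, 6 had their highest level there, and 4 passed the test, beside 50.5% of protein-coding genes. Among the 10264 genes that passed, 22.9% were highest in replicate 3 and lowest in replicate 2. A further 11.9% were highest there and lowest in replicate 1. The summed level of the neuron list was 71.6, 71.8 and 316 TPM in replicates 1, 2 and 3. Snap25, a synaptic fusion protein gene, stood at 22.4, 35.2 and 124 TPM, and Rbfox3, a marker of mature neurons, at 0, 0.986 and 0.955 TPM. Actb, the beta actin gene, was also highest in replicate 3, at 67.6, 84.5 and 141 TPM. The other actin gene examined, Actg1, was highest in replicate 1, at 217, 143 and 206 TPM. Of the 20 genes listed for the stereocilia core, tip and taper, 14 were highest in replicate 1 and 5 in replicate 3. Macrophage markers were divided, with 6 of 10 highest in replicate 3, 2 in replicate 1 and 2 in replicate 2. Their median was 6.99, 7.32 and 7.61 on the log2(TPM + 1) scale. C1qa, a complement gene of macrophages, stood at 116, 168 and 404 TPM, while Fcer1g stood at 120, 204 and 197 TPM and Cd68 at 159, 151 and 146 TPM. The summed macrophage level was highest in replicate 1 instead, at 7729, 4871 and 5865 TPM, of which Lyz2 made up the larger part. The part of neurons, macrophages or other cells in the Eps8 level was not tested.

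The 3 motor genes lay close together in level but differed in how they varied. Myo7a (chromosome 7, 97700267 to 97768731) encodes myosin VIIa, the motor of the tip-link scaffold and a standard hair cell marker. Myo7a was counted 651, 551 and 591 times, or 7.12, 6.62 and 7.25 TPM. This was the most even of the 10 genes, with a 1.10-fold range, a mean of 7.00 ± 0.332 TPM and adjusted p = 0.00188 against 1 TPM (limma). Its SD of 0.06 in log2(TPM + 1) was exceeded by nearly all genes that passed, with 1.31% of them varying less.

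Myo15a (chromosome 11, 60360165 to 60419195) encodes the motor that supplies the stereocilia tip. Myo15a was counted 850, 480 and 288 times, or 8.55, 5.30 and 3.25 TPM, highest in replicate 1 and lowest in replicate 3. The mean was 5.70 ± 2.67 TPM (limma, adjusted p = 0.0113). Myo6 (chromosome 9, 80072313 to 80219011) encodes myosin VI, which moves towards the pointed end of actin and anchors the membrane at the stereocilia base. Myo6 was counted 539, 627 and 798 times, or 3.67, 4.69 and 6.10 TPM, with the order of the libraries opposite to that of Myo15a. The mean was 4.82 ± 1.22 TPM (limma, adjusted p = 0.0115). Relative to Myo7a in the same library, Myo15a stood at 1.20, 0.801 and 0.448 times, and Myo6 at 0.516, 0.709 and 0.841 times. With the vM21 length Myo15a stood at 0.833, 0.556 and 0.311 times, and Myo6 at 0.784, 1.08 and 1.28 times, so that its side of Myo7a depended on the length.

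The 2 surface protein genes differed in level. Ptprq (chromosome 10, 107352910 to 107555912) encodes a receptor phosphatase that forms the shaft connectors between stereocilia. Ptprq was counted 908, 503 and 178 times, or 15.5, 9.46 and 3.42 TPM, with the same order of libraries as Myo15a and a 4.55-fold range. The mean was 9.47 ± 6.06 TPM (limma, adjusted p = 0.00706). Strc (chromosome 2, 121194209 to 121217649) encodes stereocilin, which forms the horizontal top connectors of cochlear outer hair cells. Strc was counted 54, 52 and 11 times, or 0.838, 0.887 and 0.192 TPM, and was lowest of the 10 on average, at 0.639 ± 0.388 TPM (limma, adjusted p = 1.00). Both genes were lowest in replicate 3.

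The calls of 3 of the 6 passing genes were lost with 1 library left out. Without replicate 1, the adjusted p of Ptprq was 0.108, that of Myo15a 0.113 and that of Myo6 0.0611 (limma). Without replicate 2, they were 0.117, 0.107 and 0.0898. Without replicate 3, Myo6 alone of these lost its call, at 0.0759, while Ptprq (0.0176) and Myo15a (0.0353) kept theirs. The levels themselves moved less: Myo6 stood 1.52 above the threshold on the log2(TPM + 1) scale with all libraries and between 1.37 and 1.67 with 1 left out. For Ptprq the difference was 2.19, and 1.76 to 2.72 with 1 left out, and for Myo15a it was 1.67, and 1.37 to 1.96. Ush1c, Espn and Myo7a kept theirs with any single library left out, so that 3 of the 10 genes passed without replicate 1, 3 without replicate 2 and 5 without replicate 3. In each of these cases 6 of the 10 had an unadjusted p under 0.05. The share of all genes that passed with 1 library left out was not tallied, so these losses cannot be called particular to the 10 genes.

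**Figure D2:**
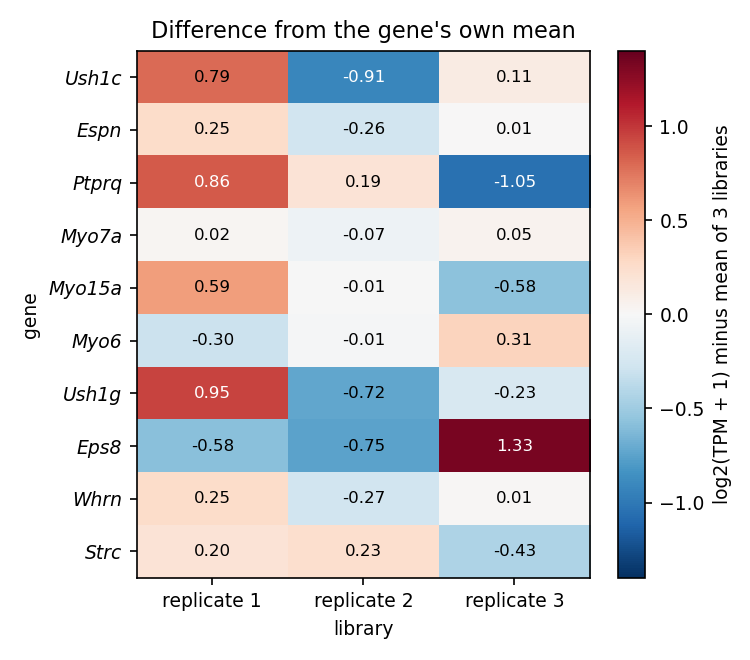
Difference of each gene's log2(TPM + 1) from its own mean, by gene (rows, in order of mean TPM) and library (columns), with the value in each cell and red for higher. Myo7a stays within 0.07 of its mean, while Eps8 reaches 1.33 in replicate 3 and Ptprq lies at -1.05 there.

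The libraries did not share 1 order over the 10 genes. Besides Ush1c, Espn, Ush1g and Whrn, with replicate 1 highest and replicate 2 lowest, Ptprq and Myo15a were highest in replicate 1 and lowest in replicate 3. Myo7a and Eps8 were highest in replicate 3 and lowest in replicate 2, Myo6 was highest in replicate 3 and lowest in replicate 1, and Strc was highest in replicate 2. Among the 10264 genes that passed, the order of the first 4 was held by 19.0% and that of Ptprq and Myo15a by 24.7%. Of the 12 hair cell genes, Pou4f3, Atoh1, Calb2 and Otof had the order of Ush1c, and Barhl1, Chrna10 and Cabp2 that of Ptprq. The other 5, Gfi1, Lhx3, Ocm, Slc17a8 and Chrna9, had the order of Strc, with replicate 2 highest and replicate 3 lowest, which 15.6% of the genes that passed held. None of the 12 was highest in replicate 3, where Myo7a, Myo6 and Eps8 were highest. Of the genes that passed, 22.9% had the order of Myo7a and Eps8, and 11.9% that of Myo6. The median hair cell gene stood at 5.59, 5.15 and 4.45 on the log2(TPM + 1) scale in replicates 1, 2 and 3, and the median of the 10 genes at 2.82, 2.58 and 2.32. The summed level of the 10 genes was lowest in replicate 2 instead, at 191, 83.4 and 125 TPM, and only Ptprq and Myo15a fell from each replicate to the next. The supporting cell list fell in its median, at 7.53, 7.20 and 6.40, with 10 of its 12 genes highest in replicate 1. The part of either cell type in the levels of the 10 genes was not tested.

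In the order of mean TPM, most neighbours did not differ beyond their spread. Neighbours were set apart where the same gene was higher in 3 of 3 libraries and the mean difference in log2(TPM + 1) exceeded its SD. Ush1c lay above Espn by 1.73 ± 0.60, Espn above Ptprq by 1.24 ± 0.92 and Whrn above Strc by 0.52 ± 0.47. For each of these 3 pairs a two-sided exact permutation test that flips signs over libraries gave p = 0.25, the smallest that 3 libraries allow. From Ptprq through Myo7a, Myo15a, Myo6, Ush1g and Eps8 to Whrn, no neighbours were apart, with exact permutation p between 0.5 and 1. Eps8 had a higher mean TPM than Whrn but a log2 level lower by a difference of -0.03, since 1 library carried its mean.

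The order also depended on the length by which each gene was scaled. The length implied by count and FPKM in the deposited table was 19765 bp for Myo6, 15944 bp for Eps8, 14262 bp for Espn and 11162 bp for Whrn. Their longest coding transcripts in GENCODE vM21, an annotation of the older build GRCm38, are 7927, 4567, 4618 and 4049 bp long. For Eps8 the implied length was thus 3.49 times the transcript, for Espn 3.09 times, for Whrn 2.76 times and for Myo6 2.49 times. For Ush1g, which has 1 transcript, it was the same length, and for Ptprq and Myo15a it was 1.06 and 1.14 times the transcript. The median over 16187 protein-coding genes was 1.89 times. Counts are the same under either length.

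With the longest vM21 transcript in place of the implied length, an alternative added after the data were seen, the same 6 genes passed, beside 40.1% of 25973 genes tested. Espn then stood at 39.6 ± 6.66 TPM, Myo6 at 7.43 ± 1.95 TPM, Ptprq at 6.19 ± 3.87 TPM and Myo15a at 3.99 ± 1.80 TPM. Myo6 thus moved from below Ptprq and Myo15a to above them in mean TPM. Ush1c at 86.7 ± 45.8 TPM and Myo7a at 7.08 ± 0.283 TPM changed little. Eps8 stood at 1.07, 0.752 and 10.1 TPM and Whrn at 2.91, 1.58 and 2.27 TPM. In CPM, without any length, Whrn passed against 1 CPM as the seventh gene (limma, adjusted p = 0.0172), beside 43.4% of all genes.

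**Figure D3:**
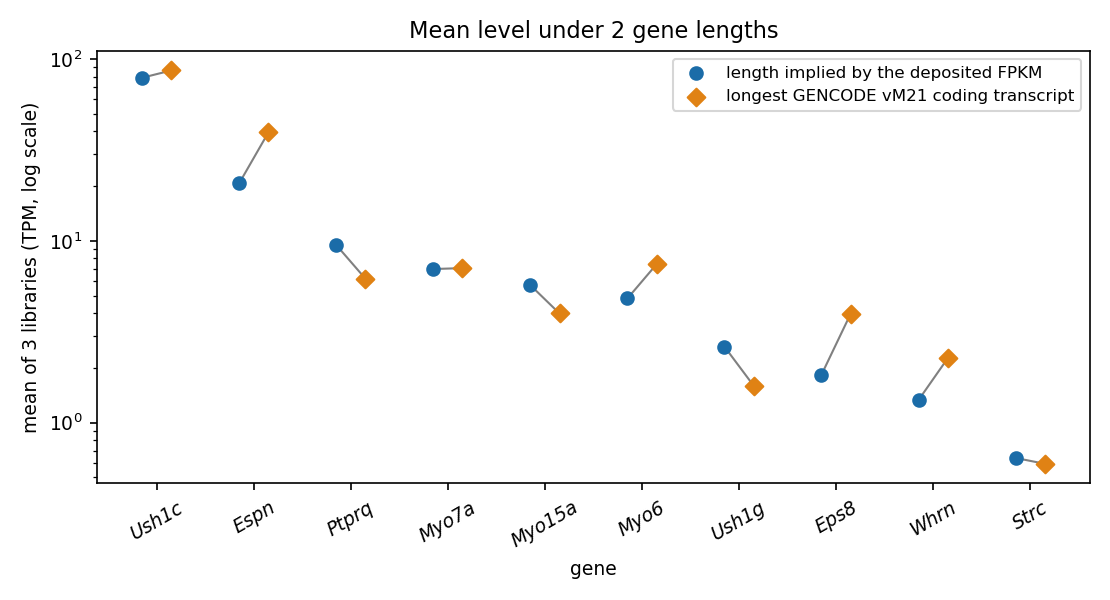
Mean TPM over 3 libraries (log axis) of each gene with the length implied by the deposited FPKM (circles) and with the longest GENCODE vM21 coding transcript (diamonds). Eps8, Espn, Whrn and Myo6 are higher with the second length, and Ptprq, Myo15a and Ush1g are lower.

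Little transcript sequence of these genes was shared with other genes. Windows of 75 bases along the longest coding transcript of each gene were searched in all vM21 transcripts of other genes on both strands. For 9 of the 10 genes no window was shared, and for Ush1c 1.60% of the windows matched the opposite strand of Gm9860, which lies within it. Gm9860 itself was counted 14, 24 and 3 times. The locus of Strc overlaps only the last bases of the creatine kinase gene Ckmt1: it begins at 121194209, and Ckmt1 ends at 121194218. Ckmt1 was counted 275, 134 and 1109 times. The sources used here do not say whether counting used strand.

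The partners of these proteins at the hair bundle were present at unequal levels. Of the 20 genes listed for the stereocilia core, tip and taper, 17 passed, or 10 without replicate 2. With all libraries, 37.6% of all genes tested and 50.5% of protein-coding genes passed. Apart from the actin genes Actg1 and Actb, which most cells express, the highest with the implied length were Grxcr2 (95.0 ± 56.8 TPM), Pls1 (94.7 ± 69.6 TPM), Grxcr1 (74.5 ± 24.5 TPM) and Gnai3 (73.9 ± 24.2 TPM). With the vM21 length the order was Pls1 (64.8 ± 47.1 TPM), Fscn2 (60.0 ± 36.4 TPM), Grxcr2 (58.3 ± 34.0 TPM), Grxcr1 (45.9 ± 14.6 TPM) and Gnai3 (45.5 ± 14.5 TPM). The part of other cell types in these levels was not tested. Grxcr1 and Grxcr2 are needed for normal stereocilia shape and PLS1, or plastin 1, is a bundling protein of the core. Pls1 stood at 152, 115 and 17.2 TPM in replicates 1, 2 and 3, lowest in replicate 3 as were Ptprq and Myo15a. The 3 that did not pass were the fascin gene Fscn1, the tip motor gene Myo3a and Baiap2l2, whose product is needed to maintain the shorter rows. Myo3a stood at 3.02, 0.587 and 0 TPM, and Baiap2l2 at 1.07, 0.247 and 0.189 TPM.

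Of 6 partner genes for the links that the Usher scaffold anchors, 1 passed, beside 37.6% of all genes tested and 50.5% of protein-coding genes. Clrn1, encoding clarin 1, stood at 12.0, 10.3 and 4.10 TPM (limma, adjusted p = 0.00391). The tip-link cadherin genes did not: Cdh23 was counted 35, 52 and 0 times and Pcdh15 313, 219 and 28 times, or 0.219, 0.358 and 0 TPM and 0.946, 0.727 and 0.0949 TPM. The level of Pcdh15 depended on the length: with that of vM21 it was 2.80, 2.23 and 0.288 TPM, a mean of 1.77 ± 1.32 TPM, against 0.231 ± 0.219 TPM for Cdh23. Both were lowest in replicate 3. Adgrv1, which encodes an adhesion receptor of the ankle links, stood at a mean of 0.768 TPM and Pdzd7, a scaffold of the same links, at 0.934 ± 0.769 TPM. In CPM without gene length, 3 of the 6 passed, beside 43.4% of all genes. Without replicate 1, and likewise without replicate 2, 0 of the 6 passed limma's test, and 1 had an unadjusted p under 0.05.

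By comparison, 6 of the 8 genes of the mechanotransduction complex passed, or 3 without replicate 1. Of all genes tested, 37.6% passed with all libraries, and of protein-coding genes 50.5%. Cib2 stood at 379 ± 157 TPM and Cib3 at 343 ± 144 TPM. These encode calcium-binding partners of the TMC channel proteins. The level of Cib2 was 77.9, 49.4 and 35.2 times that of Myo7a in the same libraries, or 47.5, 30.1 and 21.4 times with the vM21 length. That length also turned the order of the pair, with Cib2 at 233 ± 91.8 TPM and Cib3 at 939 ± 402 TPM. The 2 that did not pass were Loxhd1 (3.46 ± 1.71 TPM) and Tmc2, which had 0, 87 and 0 counts.

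Because harmonin, espin and EPS8 also serve intestinal microvilli, brush border genes were examined too. Of the 10, 4 had 0 counts in every library, below the floor of 3 counts given above: Vil1, the gene of villin, Cdhr5, Anks4b and Myo1a. Cdhr2 and Myo7b each had 1 count over the 3 libraries. Tmigd1 was counted 101, 45 and 32 times, with a mean of 3.27 TPM, and Cobl, whose product nucleates actin filaments, 240, 65 and 113 times, with a mean of 1.48 TPM. Both lay above the floor but did not pass (limma, adjusted p = 0.0857 and 0.514; unadjusted p = 0.0345 for Tmigd1). Nherf1 (88.0 ± 29.4 TPM) and Ezr (38.2 ± 5.73 TPM), which many epithelia express, were the 2 that passed, beside 37.6% of all genes tested. The summed level of the list was 174, 113 and 107 TPM in replicates 1, 2 and 3. The part of other cells with microvilli in the levels of Ush1c, Espn and Eps8 was not tested.

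**Figure D4:**
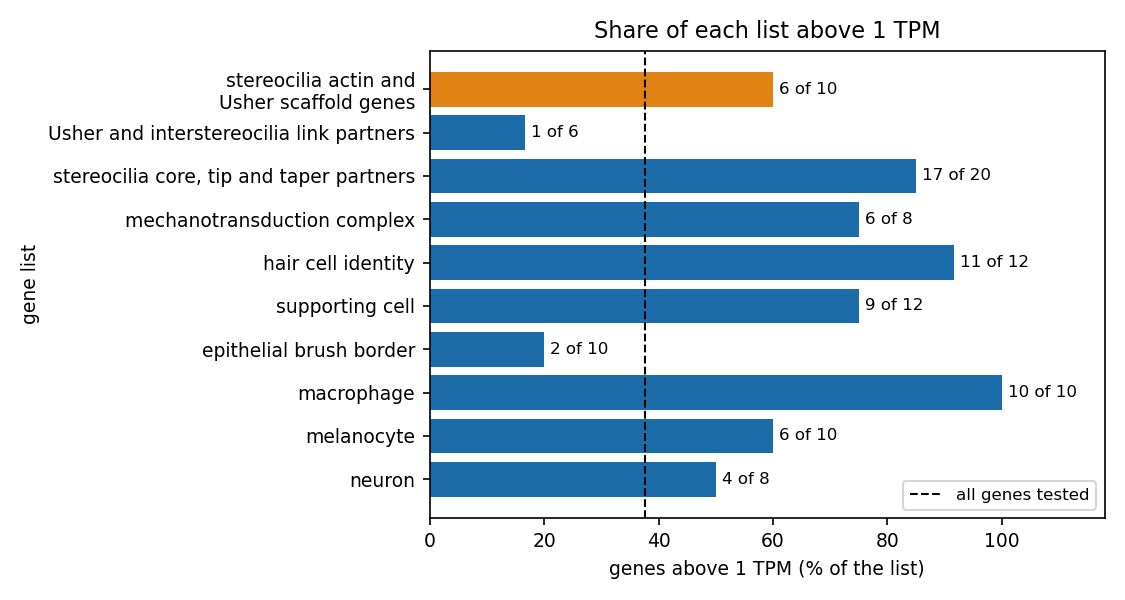
Share of each gene list above 1 TPM by limma's test with adjusted p under 0.05, as a percentage of the list, with the number of genes at each bar. The dashed line marks the 37.6% of all genes tested. Of the protein-coding genes tested, 50.5% passed. Bars count all genes of a list, including those with 0 counts, which were not tested. The bar of the 10 stereocilia actin and Usher scaffold genes is at 60.0%, that of the link partners at 16.7%.

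Genes outside the 10 were also ranked by the likeness of their profile over the 3 libraries. The reference was the mean centred profile of the 6 genes at 1 TPM or more in every library, and the likeness was the root-mean-square distance in log2(TPM + 1). Over 3 libraries and 5296 protein-coding genes with a mean of at least 10 TPM, the nearest were Alad, Pmvk, Map2k1, Wars1 and Scarb2, at distances of 0.00501 to 0.0154. A distance of 0.1 or less held for 248 genes, so the nearest genes do not show a cell type. The 10 genes themselves lay between 0.143 (Espn) and 1.09 (Eps8) from this profile, so it describes none of them closely.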

How the data were processed

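Polyadenylated RNA of 3 mouse libraries was copied and amplified with a SMART-Seq kit, per the labels' protocols. The submitters' processing notes name HISAT2, StringTie, edgeR and the build GRCm39, without versions or roles. The deposited table gives raw counts per gene and FPKM, per the file headers. The deposited FPKM equalled the count divided by a fixed gene length and the library's total count, with the implied length differing between libraries by at most 0.0528%. The sources used here do not say how multiply matching reads and strand were treated.

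FPKM was rescaled to TPM and tested as log2(TPM + 1) with limma 3.58.1 in R 4.3.3 (intercept only, mean-variance trend, one-sided against 1 TPM, adjusted by Benjamini-Hochberg for the 27265 genes counted in any library). The code of the test was tried on simulated counts with the same dispersion for all genes. Real genes differed in spread, so this was a check of the code and not of the calls. With 1 group there is no contrast for a count model, and edgeR 4.0.16 gave TMM factors for an alternative. Slc9a3r1 was matched as Nherf1 by gene ID, and 95.3% of genes with a count had a GENCODE vM21 transcript. The genes and lists were chosen with earlier results of these data known. The plan was to name the 10 genes, the 6 highest and the non-passing members of each list, and the 5 nearest profiles. The text names fewer genes of several lists, and some outside that plan, such as Otof, Slc17a8, Lhx3 and Atoh1. Alternatives varied pseudocount, scaling, length, filter, trend, threshold and libraries. The values of 1 listed gene are not reported here.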

Additional observations from a re-analysis of the deposited data

How the results depend on the processing

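Ush1c and Espn passed under all 11 alternatives, and Ush1g, Eps8 and Strc under none. The count of the 10 genes that passed, 6 with all libraries, was 2 against 5 TPM and 3 to 5 with 1 library left out. The count of link partners, 1 of 6, was 3 in CPM without length, where 43.4% of all genes passed. It was 0 against 5 TPM (0 at an unadjusted p under 0.05, limma) and 0 to 1 with 1 library left out (1 at an unadjusted p under 0.05 in each case). The count of core, tip and taper genes, 17 of 20, was 9 against 5 TPM and 10 to 14 with 1 library left out (10 without replicate 2). That of mechanotransduction genes, 6 of 8, was 3 to 6 with 1 library left out (3 without replicate 1). That of neuron genes, 4 of 8, was 2 with a pseudocount of 5, without limma's trend and against 5 TPM, 7 in CPM, and 2 to 3 with 1 library left out. The cause was not tested, beyond the fewer samples and the higher level by construction. The share of all genes that passed was not tallied against 5 TPM or with 1 library left out. The median level, 2.59, was 3.34 with a pseudocount of 5 and 4.92 in CPM, which are other scales. Log2 levels moved to the other side of the threshold level for Myo6 (-0.064), Ush1g (-0.91), Whrn (-1.38) and Eps8 (-1.41) against 5 TPM, for Eps8 with a pseudocount of 0.1 (-0.019) and without replicate 3 (-0.49, with a range up to 0.55 over the libraries left out), and for Strc in CPM (0.65). Scaling by TMM factors changed no call among the 10 genes. Levels near the floor of 3 counts are limited by depth.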

Other observations

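Some hair cell transcripts were counted unevenly over the libraries. Tmc2 was counted 0, 87 and 0 times in replicates 1, 2 and 3, Cdh23 35, 52 and 0 times and Myo3a 198, 35 and 0 times. Gfi1, a hair cell transcription factor named after its values were seen, was counted 1687, 1819 and 20 times, and Pls1 4650, 3202 and 470 times. Ocm, the gene of the calcium-binding protein oncomodulin, was even by contrast, at 1176, 1195 and 1041 counts, as was Myo7a at 651, 551 and 591 counts.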
